A study of Mus musculus with 8 samples.

Results

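Peptidoglycan (PGN) is the polymer of sugar chains and short peptides that forms the bacterial cell wall. The response of CD11b+ cells of NOD mice to PGN was followed over all measured genes. It was taken from 4 of the 8 arrays of the study: 2 of PGN-treated and 2 of unstimulated NOD cells. Each gene was represented by the probe set with a single gene symbol and the highest mean over all arrays, which gave 18193 genes, and the difference was PGN minus unstimulated on the log2 scale.

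NOD is an inbred mouse strain that develops autoimmune diabetes spontaneously. CD11b, the product of Itgam, is an integrin subunit carried by neutrophils, monocytes and macrophages. NOD cells were incubated at 37 °C for 4 h in medium alone or with 5 µg/ml PGN. The remaining 4 arrays held cells of NOD.Idd3, a congenic strain with a protective Idd3 region on the NOD background, under the same 2 conditions and entered the fit to estimate the spread. The titles call the replicates of each group biological and number them, without saying what separated them (mice, pools of mice or cultures). The p-values cover the spread among these arrays. For the age and sex of the mice, the tissue and the isolation of the cells, nothing was found in the labels.

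All 10 genes listed as defining CD11b+ myeloid cells (Itgam, Itgb2, Lyz2, Cd14, Csf1r, Fcgr3, Tyrobp, Fcer1g, Spi1 and Cebpb) were measured, and none was dim, meaning below the 25th percentile of its array, in the NOD groups. Itgam itself was at log2 8.85 and 8.66 on the unstimulated arrays and at 8.36 and 7.87 with PGN. None of the 10 passed the test for a PGN effect, and their median log2 change was -0.19. The median log2 value of the NOD arrays lay between 5.42 and 5.50, and replicate arrays correlated across genes at 0.987 (unstimulated) and 0.986 (PGN).

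As background, PGN and the lipoproteins that accompany it in cell wall preparations are sensed at the cell surface by Toll-like receptor 2 (Tlr2) paired with Tlr1 or Tlr6. Fragments of PGN that reach the cytosol are sensed by Nod1 and Nod2. Both routes activate the transcription factor NF-kB and MAP kinases, and myeloid cells answer with cytokines, chemokines and inhibitors that limit the response.

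In NOD cells 330 genes rose and 387 fell with PGN at a Benjamini-Hochberg adjusted p under 0.05 (limma). The 717 genes were 3.94% of all genes tested, with 1.81% rising and 2.13% falling. Rises reached further than falls: 44 genes rose and 4 fell by at least 8-fold, while 316 rose and 362 fell by at least 2-fold. The median change was 1.71 (log2) among the genes that rose and -1.50 among those that fell, against 0.03 over all genes. Genes that rose had a median unstimulated value of 8.16 and genes that fell one of 9.64, against 6.53 over all genes. With the genes ranked by unstimulated value into 5 bins of like size, 1.76% of the highest bin rose and 4.37% fell, and 0.385% of the lowest bin rose and none of its 3639 genes fell. A fall cannot be seen in a gene that is already near background. Likewise a rise may be held down in a gene near the top of the range, where the NOD arrays reached 15.13 to 15.39. This was not tested. The 2 PGN arrays lay wholly above or below the 2 unstimulated arrays for every gene that passed, and for 45.2% of all genes tested (23.2% above, 21.9% below).

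The calls depended on which arrays were used. With the replicate number as a block in the fit, 1586 genes passed (8.72%), with 696 rising (3.83%) and 890 falling (4.89%), among them all 717. Left out in turn, unstimulated replicate 1 left 876 calls (533 of the 717), unstimulated replicate 2 left 103 (101 of the 717), PGN replicate 1 left 442 (316 of the 717) and PGN replicate 2 left 77 (76 of the 717). Of the 717 genes, 66 passed under all 4 omissions, 50 rising and 16 falling, and no called gene changed direction under any of them. Those directions could not change, because the PGN arrays of each called gene lay wholly above or wholly below its unstimulated arrays. Of the called genes named below, Casp9, Cav2, Ehf, Epha4, Foxo4, Nt5e, Rgs3, Tfrc and Zfp36l2 had at least 1 other probe set that changed in the opposite direction. The 66 genes are called robust to the omissions in what follows.

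**Figure D1:**
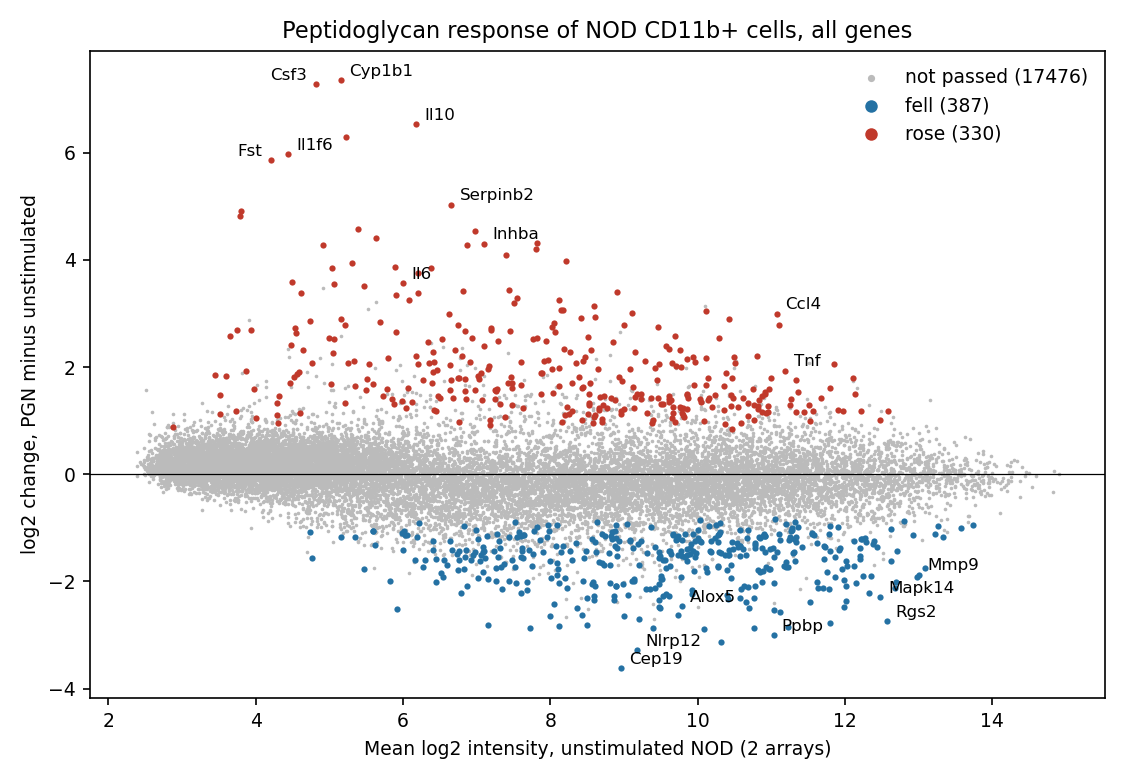
Log2 change with PGN (vertical axis) against mean log2 intensity of the 2 unstimulated NOD arrays (horizontal axis) for each gene, with genes that rose in red (330), fell in blue (387) and did not pass in grey. Rises reach above 7 log2 units and start from low unstimulated values for the largest, while falls stay above -4 and lie mostly among genes with middle to high unstimulated values.

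The stretch just before the transcription start of 4 genes that rose, a cytokine (Il6), an NF-kB subunit (Rel), a cytokine receptor chain (Il2ra) and the enzyme with the largest rise (Cyp1b1), is shown because each holds a match to the NF-kB consensus. Of the 77 listed genes that rose, 42 had exactly 1 promoter in the RefSeq table of build GRCm38.p6, and in 7 of these the 250 bases before the start held a match (Acvr1b, Cyp1b1, Il2ra, Il6, Lif, Pdcd1lg2 and Rel). Each sequence runs 5′ to 3′ along the gene's strand and ends at the base before the start. Capitals mark the matches on either strand, overlapping ones merged.
Il6 (chr5:30012864-30013113, + strand): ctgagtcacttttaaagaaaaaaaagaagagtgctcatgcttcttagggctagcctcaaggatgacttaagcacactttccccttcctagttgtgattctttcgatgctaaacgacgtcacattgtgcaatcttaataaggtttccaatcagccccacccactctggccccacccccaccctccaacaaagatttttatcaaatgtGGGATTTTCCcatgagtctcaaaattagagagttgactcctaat
Rel (chr11:23770970-23771219, - strand): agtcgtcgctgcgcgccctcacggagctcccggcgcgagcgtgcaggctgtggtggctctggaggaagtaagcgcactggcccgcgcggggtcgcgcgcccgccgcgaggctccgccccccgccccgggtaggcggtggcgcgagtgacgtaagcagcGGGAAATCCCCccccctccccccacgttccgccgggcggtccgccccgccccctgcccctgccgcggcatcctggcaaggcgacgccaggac
Il2ra (chr2:11642542-11642791, + strand): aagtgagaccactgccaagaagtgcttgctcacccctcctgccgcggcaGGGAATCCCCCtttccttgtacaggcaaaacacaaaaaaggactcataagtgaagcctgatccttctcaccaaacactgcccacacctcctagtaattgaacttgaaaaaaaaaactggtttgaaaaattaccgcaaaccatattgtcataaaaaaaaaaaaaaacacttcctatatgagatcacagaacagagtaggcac
Cyp1b1 (chr17:79715062-79715311, - strand): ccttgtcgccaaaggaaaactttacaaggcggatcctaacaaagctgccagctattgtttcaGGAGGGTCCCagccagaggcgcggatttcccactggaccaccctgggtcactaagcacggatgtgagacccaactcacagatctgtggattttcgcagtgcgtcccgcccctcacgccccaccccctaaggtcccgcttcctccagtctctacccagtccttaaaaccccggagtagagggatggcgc

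The Il6 match lay at -44 to -35 and the Cyp1b1 match at -188 to -179, counted from the start, with -1 the base before it. Over all 22862 genes with 1 promoter in the table (chromosome 18 left out), 6.93% held an NF-kB match in this window. The share was 8.48% of the 11791 tested genes, 15.2% (30 of 197) of those that rose and 10.8% (26 of 240) of those that fell. The AP-1 motif TGANTCA, which does not overlap the NF-kB consensus in the Il6 window, was held by 6.96% of all promoters, 5.44% of those of tested genes, 9.14% of genes that rose and 5.00% of genes that fell. GCGTG, the core to which the aryl hydrocarbon receptor binds, was held by 27.7% of all promoters, 38.9% of those of tested genes, 43.1% of genes that rose and 42.9% of genes that fell. All motifs were searched on both strands, and these shares carry no test.

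The 3 largest rises after PGN were those of Cyp1b1, Csf3 and Il10. Cyp1b1, a cytochrome P450 induced through the aryl hydrocarbon receptor, was at 6.30 and 4.03 on the unstimulated arrays and at 12.35 and 12.69 with PGN. Csf3, which encodes the neutrophil growth factor G-CSF, went from 5.23 and 4.40 to 11.99 and 12.20. Il10, an anti-inflammatory cytokine, went from 6.77 and 5.59 to 12.50 and 12.93. In each of the 3 the groups lay at least 5 log2 units apart. The log2 changes were 7.36 ± 0.59 (SE, 2 arrays a group; adjusted p = 9.72e-04) for Cyp1b1, 7.28 ± 0.34 (adjusted p = 1.09e-04) for Csf3 and 6.54 ± 0.40 (adjusted p = 3.55e-04) for Il10, or 164-fold, 156-fold and 92.9-fold. All 3 were robust to the omissions, with the change of Cyp1b1 between 6.22 and 8.495. Among the 15 largest rises were also the uncharacterised U90926 (6.30 ± 0.90), the matrix protein gene Thbs4 (4.57 ± 0.72) and the surface antigen gene Plet1 (4.28 ± 0.63). These last 3 did not pass without unstimulated replicate 2 (adjusted p 0.0793 to 0.106) or without PGN replicate 2 (0.0530 to 0.0735), and Thbs4 and Plet1 did not without PGN replicate 1 (0.0588 and 0.0509).

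Of 22 measured pro-inflammatory cytokine genes 9 rose, none fell, and the median change was 0.93. Il1f6, which encodes IL-36 alpha of the IL-1 family, was at 4.83 and 4.05 unstimulated and at 10.14 and 10.68 with PGN, a change of 5.97 ± 0.30 (adjusted p = 1.09e-04). Tnfsf9, the ligand of the T cell costimulator 4-1BB, went from 7.87 and 7.77 to 12.03 and 12.25 (4.32 ± 0.22, adjusted p = 1.09e-04). Il1a, an IL-1 that also acts as an alarmin, went from 6.51 and 5.90 to 9.88 and 10.04 (3.76 ± 0.37, adjusted p = 0.00281). These 3 were robust to the omissions. Il6, the acute-phase cytokine, was at 6.78 and 5.23 unstimulated and at 9.60 and 9.56 with PGN (3.57 ± 0.54, adjusted p = 0.0114). Tnf was already at 11.57 and 10.80 before PGN and reached 13.13 and 13.12 (1.94 ± 0.28, adjusted p = 0.00935).

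The subunits of the IL-12 family did not move as one. Il23a, the p19 subunit of IL-23, went from 7.84 and 6.13 to 11.53 and 11.51 (4.54 ± 0.74, adjusted p = 0.0141). Il12a, the p35 subunit of IL-12, went from 7.65 and 5.12 to 10.62 and 9.86 (3.85 ± 0.75, adjusted p = 0.0283). Il12b, the p40 subunit that both cytokines need, was at 5.76 and 5.27 unstimulated and at 6.26 and 5.75 with PGN, so its groups overlapped (0.49 ± 0.32, adjusted p = 0.458). Il1b was at 14.48 and 14.05 unstimulated and at 14.65 and 14.35 with PGN, again overlapping (0.23 ± 0.23, adjusted p = 0.635). Before PGN it lay near the top of the range, where the NOD arrays reached 15.13 to 15.39. Whether this held down a rise was not tested. Lif, of the IL-6 family, rose by 2.04 ± 0.42 (adjusted p = 0.0333), and Lta, the lymphotoxin alpha gene, by 1.68 ± 0.33 (0.0274). Ltb, its membrane-anchoring partner, changed by -1.94 ± 0.45 with an adjusted p of 0.0513 (0.0130 with the replicate block). Without unstimulated replicate 2 the calls of Il23a, Il12a, Il6, Lif, Tnf and Lta were lost (adjusted p 0.0587 to 0.190). The same 6 were lost without PGN replicate 2 (0.0712 to 0.161), Il23a, Il12a and Lta without PGN replicate 1 (0.0583 to 0.111), and Lif and Lta without unstimulated replicate 1 (0.0664 and 0.0765).

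**Figure D2:**
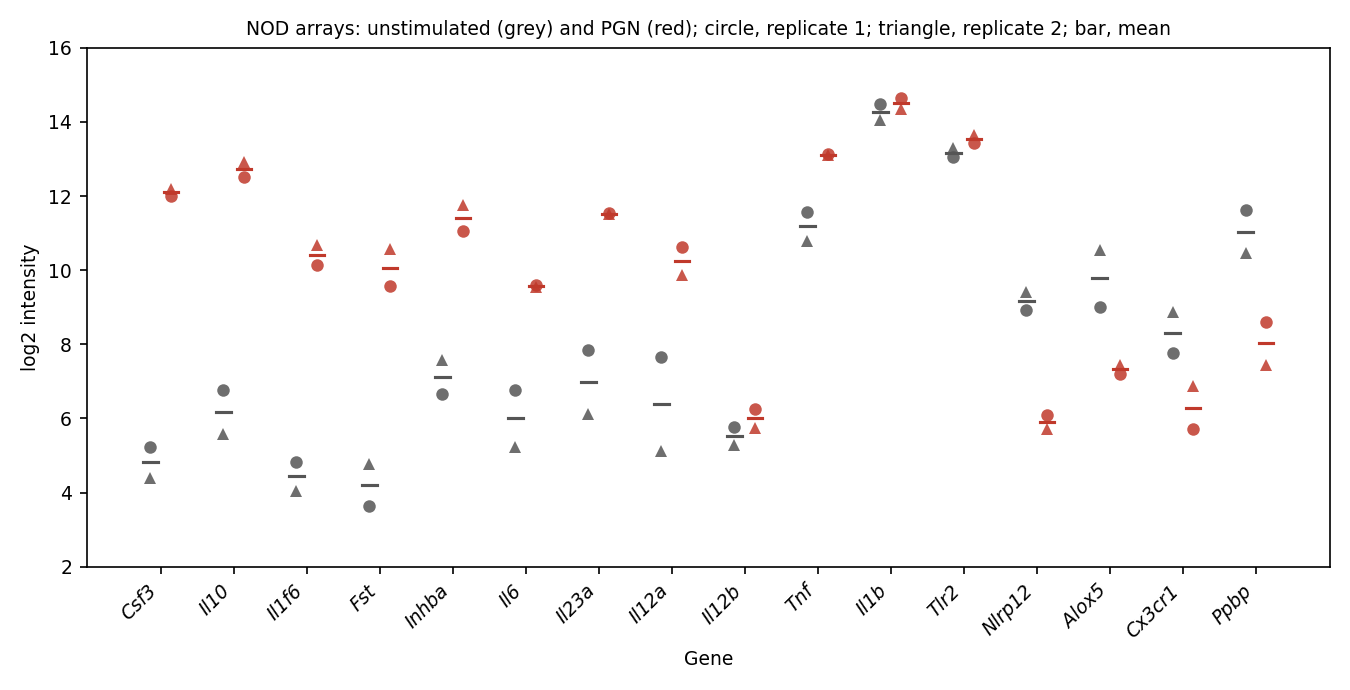
Log2 intensity of 16 genes on each NOD array, unstimulated in grey and PGN in red, with circles for replicate 1, triangles for replicate 2 and bars for the mean of 2 arrays. Csf3, Il10 and Il1f6 lie above 10 on both PGN arrays and below 7 on both unstimulated arrays, while the groups of Il1b and Il12b overlap and Nlrp12, Alox5, Cx3cr1 and Ppbp lie lower with PGN.

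Growth and differentiation factors held 5 rises among 21 measured genes and no fall, with a median of 0.35. The rises were large and all robust to the omissions. Inhba, the subunit of activin A, went from 6.65 and 7.56 to 11.07 and 11.75 (4.30 ± 0.38, adjusted p = 0.00164). Fst, follistatin, which binds and neutralises activin, went from 3.64 and 4.78 to 9.57 and 10.57 (5.86 ± 0.45, adjusted p = 8.05e-04). The ligand and its antagonist therefore both lay higher on each PGN array than on any unstimulated one. Ereg, the EGF receptor ligand epiregulin, went from 4.36 and 3.24 to 9.0 and 8.44 (4.91 ± 0.45, adjusted p = 0.00179), and Edn1, the vasoconstrictor endothelin, from 5.81 and 5.46 to 10.09 and 10.01 (4.42 ± 0.29, adjusted p = 5.14e-04).

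Of the 3 colony-stimulating factors measured, only Csf3 passed. Csf2, GM-CSF, was dim without PGN (3.81 and 3.24) and at 4.24 and 4.69 with it (0.94 ± 0.28, adjusted p = 0.107). Csf1, M-CSF, was at 11.37 and 11.51, then 11.71 and 11.89 (0.36 ± 0.28, adjusted p = 0.534). Outside the list, and chosen after their values were seen, the angiogenic factor gene Pgf (3.87 ± 0.33), its receptor gene Flt1 (2.21 ± 0.47) and the ErbB ligand gene Nrg1 (3.38 ± 0.48) rose. Pgf was robust to the omissions. Flt1 was lost without unstimulated replicate 2 (adjusted p = 0.265), PGN replicate 1 (0.0982) or PGN replicate 2 (0.170), and Nrg1 without PGN replicate 2 (0.0712).

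Among 35 regulatory mediators, a list of anti-inflammatory cytokines, checkpoint ligands and enzymes that make or break down regulatory metabolites, 8 rose and 4 fell. Il10 and Cyp1b1 led it. Ido2, a tryptophan-degrading enzyme, rose from 5.41 and 4.58 to 7.52 and 7.56 (2.54 ± 0.27, adjusted p = 0.00351). Tiparp, an aryl hydrocarbon receptor target like Cyp1b1, rose by 2.10 ± 0.42 (adjusted p = 0.0298), while Cyp1a1 (0.38), Ahrr (1.51) and Ahr (0.01) did not pass. Tnfaip6, a hyaluronan-binding anti-inflammatory protein (2.33), Pdcd1lg2, the PD-1 ligand PD-L2 (1.63), and Cd40, a costimulatory receptor (1.18), also rose. Nos2, inducible nitric oxide synthase, was at 5.26 and 4.61, then 5.88 and 7.41 (1.71 ± 0.80, adjusted p = 0.292). Falls outside the lipoxygenases were seen for Tnfaip8l2, an inhibitor of innate signalling (-1.53 ± 0.22), and Nt5e, the enzyme CD73 that makes adenosine (-2.25 ± 0.51). Cyp1b1, Il10 and Ido2 were robust. Without unstimulated replicate 2 (adjusted p 0.0704 to 0.297) or PGN replicate 2 (0.0712 to 0.203), Tiparp, Tnfaip6, Pdcd1lg2, Cd40, Tnfaip8l2 and Nt5e were lost. All of these but Tnfaip8l2 were also lost without PGN replicate 1 (0.0585 to 0.146), and Tnfaip6 without unstimulated replicate 1 (0.0557). The fall of Nt5e was -1.37 without unstimulated replicate 2.

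Enzymes of lipid mediators, of which Ptges, Ptgs2, Alox5, Alox5ap, Alox15 and Lta4h belong to the same list and Pla2g4a, Ltc4s and Sphk1 were added after their values were seen, held 3 rises and 3 falls. Arachidonic acid is released by cytosolic phospholipase A2, the product of Pla2g4a, which went from 9.71 and 9.58 to 10.94 and 11.13 (1.39 ± 0.21, adjusted p = 0.0102). Ptges, which makes prostaglandin E2, went from 10.57 and 9.64 to 12.96 and 13.34 (3.05 ± 0.44, adjusted p = 0.00935). Ptgs2, the cyclooxygenase before it, was at 12.95 and 11.38, then 14.13 and 13.42 (1.62 ± 0.47), with an adjusted p of 0.103 and of 0.0343 with the replicate block. On the leukotriene branch Alox5, 5-lipoxygenase, fell from 9.02 and 10.55 to 7.20 and 7.45 (-2.46 ± 0.43, adjusted p = 0.0181), and Ltc4s, leukotriene C4 synthase, from 6.66 and 6.87 to 5.07 and 5.25 (-1.60 ± 0.34, adjusted p = 0.0366). Lta4h, which makes leukotriene B4, changed by -1.79 ± 0.44 (adjusted p = 0.0591; 0.0133 with the replicate block), and Alox5ap, the 5-lipoxygenase activating protein, by -0.54 ± 0.26 (0.302). Alox15, another lipoxygenase, fell by 1.56 (adjusted p = 0.0333), and Sphk1, which makes sphingosine 1-phosphate, rose by 3.55 ± 0.45 (0.00636). None of the 6 calls was robust. All were lost without unstimulated replicate 2 (adjusted p 0.0533 to 0.224), all but Sphk1 without PGN replicate 2 (0.0734 to 0.140), Alox5, Ltc4s and Alox15 without PGN replicate 1 (0.0765 to 0.120), and Ltc4s without unstimulated replicate 1 (0.0673).

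Of 25 chemokine genes 2 rose and none fell, with a median of 0.25. Ccl4, an inflammatory chemokine of the CC family, went from 11.77 and 10.39 to 13.99 and 14.17 (3.0 ± 0.48, adjusted p = 0.0128). Ccl2, which attracts monocytes, went from 6.34 and 5.76 to 7.11 and 7.44 (1.23 ± 0.28, adjusted p = 0.0482). Cxcl1, which attracts neutrophils, had a larger change than either but spread widely before PGN: it was at 11.48 and 8.71 unstimulated and at 13.28 and 13.22 with PGN (3.15 ± 0.85, adjusted p = 0.0827; 0.0156 with the replicate block). Ccl3 and Cxcl2 were at 12.74 to 13.57 and 12.11 to 13.19 unstimulated and changed by 1.39 ± 0.34 and 1.06 ± 0.35, with adjusted p-values of 0.0136 and 0.0479 with the block and of 0.0327 and 0.0296 without unstimulated replicate 1. Neither passed with all arrays and no block. Cxcl14 and Ccl24 changed by -2.70 ± 1.29 and -2.28 ± 0.90 with unstimulated arrays more than 2 log2 units apart, and passed with the block (0.00923 and 0.0211). Neither Ccl4 nor Ccl2 was robust: both were lost without unstimulated replicate 2 (adjusted p = 0.0784 and 0.295), PGN replicate 1 (0.05001 and 0.0869) or PGN replicate 2 (0.0904 and 0.205).

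None of 21 chemoattractant receptors passed, and their median change was 0.02. Over all genes tested 3.94% passed, so a list of this length may hold no call. With the replicate block 3 rose and 2 fell. The largest change among those named was that of Cx3cr1, the fractalkine receptor of monocytes, at 7.77 and 8.86 unstimulated and at 5.71 and 6.87 with PGN (-2.02 ± 0.50, adjusted p = 0.0632; 0.00476 with the block). Ccr7, which guides cells to lymph nodes, changed by 1.26 ± 0.31 (adjusted p = 0.0593; 0.0367 with the block).

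Pattern recognition receptors, which bind microbial molecules, held 2 rises and 4 falls among 32 measured genes. Of the receptors said above to sense PGN, Tlr2, Tlr6 and Nod1 did not pass in either direction. Tlr2 was at 13.05 and 13.29 unstimulated and at 13.42 and 13.65 with PGN (0.36 ± 0.20, adjusted p = 0.380). Tlr6 (0.52 ± 0.28) and Nod1 (0.28 ± 0.43) likewise did not pass, Tlr4, the lipopolysaccharide receptor, changed by -0.02 ± 0.35, and Nod2 and its kinase Ripk2 were not analysed here, having no probe set with a single symbol. Nlrp3, the sensor of the inflammasome that matures IL-1 beta, rose from 10.30 and 8.93 to 12.30 and 11.62 (2.35 ± 0.48, adjusted p = 0.0330), and Nlrc5, an activator of MHC class I genes, rose by 1.65 ± 0.37 (0.0468).

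Nlrp12, a NOD-like receptor described as an inhibitor of NF-kB signalling, fell from 8.94 and 9.41 to 6.09 and 5.71 (-3.28 ± 0.39, adjusted p = 0.00537). Tlr5, the flagellin receptor, fell from 6.66 and 7.65 to 5.44 and 4.95 (-1.96 ± 0.36, adjusted p = 0.0232), and Tlr8 from 6.24 and 5.40 to 4.34 and 3.30 (-2.0 ± 0.40, 0.0319). Pglyrp1, a secreted PGN-binding protein of neutrophil granules, fell from 13.58 and 13.91 to 12.67 and 12.93 (-0.94 ± 0.21, adjusted p = 0.0478). Chosen after their values were seen, Naip5 (-1.24 ± 0.27) and Naip6 (-1.63 ± 0.29), near-identical paralogs that sense flagellin in the cytosol and whose probe sets may not separate them, also fell. None of the calls for Nlrp3, Nlrc5, Nlrp12, Tlr5, Tlr8, Pglyrp1, Naip5 and Naip6 was robust. All 8 were lost without unstimulated replicate 2 (adjusted p 0.0517 to 0.295) or PGN replicate 2 (0.0581 to 0.183), all but Nlrp12 and Tlr8 without PGN replicate 1 (0.0511 to 0.162), and Tlr8 without unstimulated replicate 1 (0.0941).

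Receptor adaptors and kinases, which carry the signal inwards, held 3 rises and 1 fall among 27 genes. Irak2, a kinase of the Toll-like receptor complex, rose by 1.42 ± 0.25 (adjusted p = 0.0185), Malt1, a protease that acts upstream of NF-kB, by 1.17 ± 0.21 (0.0206), and Mapk8, the kinase JNK1, by 1.48 ± 0.22 (0.0102). Myd88, the adaptor of Tlr2, was at 11.55 and 11.47, then 11.97 and 11.87 (0.41 ± 0.19, adjusted p = 0.291). Mapk14, the kinase p38 alpha, fell from 12.29 and 12.65 to 10.56 and 9.81 (-2.29 ± 0.32, adjusted p = 0.00909), and its substrate gene Mapkapk2, chosen after its value was seen, rose by 1.42 ± 0.23 (0.0136). Traf3ip2, an adaptor of IL-17 receptors chosen in the same way, rose by 1.70 ± 0.39 (0.0484). None of these 6 calls was robust. All were lost without PGN replicate 2 (adjusted p 0.0653 to 0.219), all but Mapk8 without unstimulated replicate 2 (0.0758 to 0.237), Irak2 and Malt1 without PGN replicate 1 (0.0723 and 0.0775), and Traf3ip2 without unstimulated replicate 1 (0.101).

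Among 22 measured NF-kB subunits and feedback inhibitors 5 rose, none fell, and 21 had a positive change, with a median of 0.68. With the replicate block 11 of them rose. Rel, the subunit c-Rel, went from 9.42 and 9.42 to 11.47 and 11.33 (1.98 ± 0.20, adjusted p = 0.00316), and Nfkbib, the inhibitor I-kB beta, from 10.24 and 10.05 to 12.03 and 11.86 (1.80 ± 0.21, 0.00423). Tnfaip3, the ubiquitin-editing inhibitor A20, rose from 12.54 and 11.74 to 13.75 and 13.52 (1.49 ± 0.29, adjusted p = 0.0264), Zc3h12c, of the regnase family, by 2.17 ± 0.28 (0.00672), and Traf1 by 1.01 ± 0.19 (0.0266). Nfkbia, I-kB alpha, was at 14.26 and 13.70 unstimulated and at 14.51 and 14.12 with PGN, with overlapping groups (0.34 ± 0.26, adjusted p = 0.522). Its unstimulated values too lay near the top of the range, and the part of this in its change was not tested.

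Immediate early genes and the phosphatases that switch MAP kinases off held 8 rises and no fall among 40 genes, with a median of 0.45. Dusp4 rose from 7.68 and 8.36 to 11.04 and 10.51 (2.76 ± 0.32, adjusted p = 0.00467), Dusp2 by 2.15 ± 0.27 and Dusp14 by 1.87 ± 0.24. Dusp6, which acts on ERK, changed the other way (-2.41 ± 0.69, adjusted p = 0.0971; 0.00881 with the replicate block). The transcription factors Maff (2.58 ± 0.31), Batf (2.54 ± 0.53), Nr4a3 (1.79 ± 0.24), Junb (1.47 ± 0.22) and Fosl1 (1.39 ± 0.29) rose. Of the 13 calls on NF-kB and immediate early genes, those of Rel, Nfkbib and Dusp4 were robust. Without PGN replicate 2 the remaining 10 were lost (adjusted p 0.0531 to 0.152), and without unstimulated replicate 2 all of these but Maff and Nr4a3 (0.0516 to 0.225). Without PGN replicate 1 Tnfaip3, Traf1, Batf and Fosl1 were lost (0.0643 to 0.115), and without unstimulated replicate 1 Traf1 and Fosl1 (0.0671 and 0.0858).

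Cytokine signalling genes included 3 rises among 23 JAK-STAT and SOCS genes and 5 rises and 2 falls among 36 cytokine receptors. Socs3, which blocks signals of the IL-6 family, went from 11.15 and 9.72 to 13.38 and 13.29 (2.91 ± 0.41, adjusted p = 0.00909), Cish, an inhibitor of STAT5 signalling, from 5.45 and 5.93 to 7.59 and 9.48 (2.84 ± 0.54, 0.0253), and Stat5a rose by 1.41 ± 0.24 (0.0164). Il1r1, the signalling receptor for IL-1, went from 5.95 and 4.66 to 9.17 and 9.31 (3.94 ± 0.44, adjusted p = 0.00396). Il1rl2, the receptor for IL-36 and so for the product of Il1f6, rose by 3.07 ± 0.37 (0.00567) and was chosen after its value was seen. Il1rap, the shared chain of these receptors (1.20 ± 0.37), the decoy receptor Il1r2 (1.28 ± 0.37) and the antagonist Il1rn (0.80 ± 0.27) did not pass, and the first 2 passed with the replicate block (adjusted p = 0.0158 and 0.0156).

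Il2ra, the high-affinity chain of the IL-2 receptor, went from 5.79 and 6.02 to 7.73 and 9.39 (2.65 ± 0.54, adjusted p = 0.0321), and Il15ra (1.58 ± 0.28), Il4ra (1.21 ± 0.27) and the activin receptor gene Acvr1b (1.25 ± 0.26) rose too. Il6ra (-1.05 ± 0.22) and Ifngr1, the ligand-binding chain of the interferon gamma receptor (-1.15 ± 0.23), fell. Clcf1, a ligand of the IL-6 family chosen after its value was seen, rose by 1.25 ± 0.22. Of the 12 calls on Socs3, Cish, Stat5a, Clcf1 and the 8 receptors, only that of Il1r1 was robust. Without PGN replicate 2 the other 11 were lost (adjusted p 0.0581 to 0.193), and without unstimulated replicate 2 all of these but Socs3 (0.0519 to 0.207). Without unstimulated replicate 1 Cish, Il2ra, Acvr1b, Il4ra, Il6ra, Ifngr1 and Clcf1 were lost (0.0566 to 0.110), and without PGN replicate 1 Stat5a, Il15ra, Acvr1b, Il4ra, Il6ra and Clcf1 (0.0539 to 0.0921).

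Further regulators of gene expression were picked after their values were seen. Mir155hg, the host transcript of the inflammation-linked microRNA miR-155, went from 5.05 and 4.20 to 8.5 and 7.53 (3.39 ± 0.65, adjusted p = 0.0269). The mature microRNAs were not measured by these arrays, and their sequences are shown because the host transcript rose, with the seed, bases 2 to 8, in capitals (RefSeq, GRCm38.p6, chromosome 16, + strand).
mmu-miR-155-5p (chr16:84714143-84714165): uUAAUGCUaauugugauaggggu
mmu-miR-155-3p (chr16:84714182-84714202): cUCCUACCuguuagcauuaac

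Among transcription factor genes Runx1, a regulator of blood cell formation (1.49 ± 0.20), Ehf, an ETS factor (1.90 ± 0.20), E2f5 (2.17 ± 0.24) and Id1, an inhibitor of helix-loop-helix factors (1.66 ± 0.27), rose. Falls were those of Nfe2, known from megakaryocytes and erythroid cells, from 10.69 and 11.55 to 8.42 and 8.66 (-2.58 ± 0.29, adjusted p = 0.00400), Lyl1 from 8.96 and 10.03 to 7.07 and 6.94 (-2.49 ± 0.33, 0.00737), Mef2c by 1.96 and Hhex by 1.52. The forkhead factor genes Foxo3, from 12.42 and 12.34 to 10.92 and 11.25 (-1.30 ± 0.21, adjusted p = 0.0147), and Foxo4 (-1.18 ± 0.22) fell, as did Tcf7l2 (-1.46 ± 0.29), the cell cycle factor gene E2f2 (-2.15 ± 0.47) and Zfp36l2, which encodes an RNA-destabilising protein (-2.01 ± 0.29). Ehf, E2f5 and Nfe2 were robust to the omissions. Counting Mir155hg, 11 of the 14 calls were lost without PGN replicate 2 (adjusted p 0.0581 to 0.156), and without unstimulated replicate 2 all of these 11 but Id1 and Lyl1 (0.0540 to 0.200). Without PGN replicate 1 Mir155hg, Mef2c, Hhex, E2f2, Foxo3, Foxo4 and Tcf7l2 were lost (0.0583 to 0.125), and without unstimulated replicate 1 Tcf7l2 (0.0590). The fall of E2f2 was -1.29 without unstimulated replicate 2.

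Proteases, their inhibitors and clotting factors held 7 rises and 2 falls among 28 genes. Serpinb2, the plasminogen activator inhibitor 2, went from 7.30 and 6.02 to 12 and 11.38 (5.03 ± 0.46, adjusted p = 0.00179). F3, tissue factor, the starter of clotting, went from 4.66 and 4.42 to 7.43 and 7.10 (2.73 ± 0.39, adjusted p = 0.00935), and its partner gene F7 and the next factor F10 rose by 1.30 ± 0.29 and 1.18 ± 0.23. Matrix metalloproteinases split: Mmp13, a collagenase (3.29 ± 0.71), and Mmp14, a membrane-bound one (2.70 ± 0.49), rose, as did the metalloproteinase inhibitor gene Timp1 (2.54 ± 0.50). Mmp9 fell from 12.74 and 13.28 to 11.37 and 10.90 (-1.87 ± 0.27, adjusted p = 0.00909) and Mmp8 from 12.50 and 12.92 to 11.31 and 11.23 (-1.44 ± 0.24, 0.0162). Both are stored in neutrophil granules and are among the neutrophil markers below. Serpinb2 was robust. The other 8 were lost without unstimulated replicate 2 (adjusted p 0.0736 to 0.225) or PGN replicate 2 (0.0638 to 0.183), Mmp13, F7, F10 and Mmp8 without PGN replicate 1 (0.0561 to 0.126), and Timp1 and F7 without unstimulated replicate 1 (0.0872 and 0.118).

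Acute-phase and soluble innate proteins held 4 rises and no fall among 24 genes, with a median of 0.09. Ptx3, a pentraxin that opsonises microbes, went from 3.96 and 3.62 to 8.08 and 9.15 (4.82 ± 0.33, adjusted p = 5.61e-04), and the serum amyloid genes Saa1 and Saa2, near-identical paralogs, rose by 3.51 ± 0.37 and 1.90 ± 0.33. Hamp, the hormone hepcidin that blocks iron export, went from 5.35 and 4.73 to 8.25 and 9.53 (3.85 ± 0.42, adjusted p = 0.00353).

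The other iron genes were looked up after their values were seen. Slc11a2, the iron transporter DMT1, went from 9.0 and 8.71 to 11.47 and 11.19 (2.47 ± 0.27, adjusted p = 0.00353), the zinc and iron transporter gene Slc39a14 from 10.14 and 9.73 to 11.98 and 12.26 (2.19 ± 0.24, 0.00358), and Flvcr2 and the transferrin receptor gene Tfrc rose by 2.69 ± 0.22 and 1.19 ± 0.27. Hfe, which regulates iron uptake and hepcidin, fell from 9.93 and 10.88 to 8.04 and 8.28 (-2.25 ± 0.37, adjusted p = 0.0142), and Slc25a28, a mitochondrial iron importer, by 1.38. Slc40a1, the iron exporter that hepcidin acts on, was at 12.82 and 12.25, then 12.52 and 11.72 (-0.42 ± 0.53, adjusted p = 0.727), and the ferritin gene Fth1 changed by 0.15 ± 0.20. Slc11a1, an iron transporter of phagosomes (0.10 ± 0.20), the haem oxygenase gene Hmox1 (0.28 ± 0.22), the siderophore-binding Lcn2 (0.25 ± 0.20) and the zinc and iron transporter gene Slc39a8 (0.35) did not pass either. Ptx3, Hamp, Saa1, Slc11a2, Flvcr2 and Slc39a14 were robust. Saa2, Tfrc, Hfe and Slc25a28 were lost without unstimulated replicate 2 (adjusted p 0.0872 to 0.190), PGN replicate 1 (0.0637 to 0.0977) or PGN replicate 2 (0.0759 to 0.197), and Tfrc also without unstimulated replicate 1 (0.127).

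Of 24 glycolysis and hypoxia genes 4 rose and 1 fell. Pfkfb3, an enzyme that raises the glycolytic activator fructose 2,6-bisphosphate, went from 10.56 and 10.43 to 12.64 and 12.73 (2.19 ± 0.20, adjusted p = 0.00179), while its paralog Pfkfb4 fell from 10.73 and 11.23 to 9.54 and 8.90 (-1.76 ± 0.29, 0.0141). Ddit4, an mTOR inhibitor induced by stress (2.79 ± 0.29), Ndrg1 (1.88 ± 0.23) and the vasodilator peptide gene Adm (1.76 ± 0.31) rose. None of 29 respiratory chain genes passed, 2 of them had a positive change, and their median was -0.20. The medians of ribosome biogenesis (28 genes, none passing, 0.03), amino acid transport and integrated stress response (24 genes, 1 rise, 0.48), NRF2 targets and metallothioneins (19 genes, 1 rise, 0.09) and cholesterol synthesis and efflux (25 genes, 1 rise, 0.02) stood beside a median of 0.03 over all genes. That median was -0.0955 over genes at or above the 40th percentile of mean level, and 3.94% of all genes tested passed. The single rises were those of Slc7a2, a transporter of arginine (2.73 ± 0.39), Slc39a14 and the endothelial lipase gene Lipg (4.28 ± 0.74).

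Among metabolic genes chosen after their values were seen, Idh2, a mitochondrial dehydrogenase, fell from 10.81 and 11.25 to 8.71 and 8.30 (-2.53 ± 0.28, adjusted p = 0.00375), and Pygl, which breaks down glycogen (-2.11 ± 0.25), Cpt1a, which admits fatty acids to mitochondria (-1.47 ± 0.32), the desaturase gene Fads1 (-2.16 ± 0.44) and the thioesterase gene Acot1 (-2.86 ± 0.58) fell. Upp1, uridine phosphorylase (2.74 ± 0.26), Hilpda, an inhibitor of lipolysis (2.21 ± 0.33), and Slc16a1, a lactate transporter (1.71 ± 0.29), rose. Ddit4, Pfkfb3, Ndrg1, Idh2 and Upp1 were robust. Of the 15 metabolic calls named, 10 were lost without PGN replicate 2 (adjusted p 0.0530 to 0.186), and without unstimulated replicate 2 Adm, Pfkfb4, Cpt1a, Fads1, Acot1, Slc16a1, Lipg and Slc7a2 (0.0661 to 0.265). Fads1, Acot1 and Hilpda were lost without PGN replicate 1 (0.05001 to 0.0869), and Cpt1a and Acot1 without unstimulated replicate 1 (0.0649 and 0.0989).

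The list in which falls outnumbered rises by most was that of small GTPase and G protein signalling regulators, with 4 rises and 7 falls among 36 genes and a median of -0.24. Rgs proteins shorten signalling by heterotrimeric G proteins. Rgs2 fell from 12.20 and 12.94 to 9.79 and 9.85 (-2.75 ± 0.32, adjusted p = 0.00431), Rgs18 from 8.47 and 9.54 to 6.80 and 5.94 (-2.64 ± 0.55, 0.0353), and Rgs14 and Rgs3 by 1.66 and 1.51. Rasgrp2, the activator of Rap1 in integrin signalling, fell from 9.31 and 9.91 to 7.74 and 6.94 (-2.27 ± 0.32, adjusted p = 0.00909), and Dock8 and Arap3 by 1.75 and 1.55. The GTPase genes Gem (2.89 ± 0.38), Rnd1 (1.66 ± 0.27) and Rab20 (1.54 ± 0.22) and the fatty acid receptor gene Gpr84 (1.09 ± 0.24) rose.

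Signalling genes outside the list were chosen after their values were seen. Beside Mapkapk2 and Traf3ip2 above, the kinase gene Src rose (1.34 ± 0.29, adjusted p = 0.0386). It did not pass under any of the 4 omissions (adjusted p 0.0750 to 0.206). Falls were those of Pik3cg, the phosphoinositide 3-kinase gamma (-1.73 ± 0.27), Inpp5d, the phosphatase SHIP1 (-1.22 ± 0.22), the insulin receptor gene Insr (-1.35 ± 0.25), the Ras inhibitor gene Rasa3 (-2.13 ± 0.22), the kinase gene Bmx (-2.32 ± 0.31), and the receptor genes Cnr2 for cannabinoids (-2.04 ± 0.29), Lpar6 for lysophosphatidic acid (-1.62 ± 0.23), Gpr65 (-1.49 ± 0.31) and S1pr5 for sphingosine 1-phosphate (-1.41 ± 0.22). Rgs2 and Rasa3 were robust. All other calls on G protein and signalling genes were lost without PGN replicate 2, and all of these but Lpar6 without unstimulated replicate 2. Rgs18, Rgs14, Rgs3, Dock8, Gpr84 and Gpr65 were lost without PGN replicate 1 (0.0593 to 0.128), and Gpr84 and Gpr65 without unstimulated replicate 1 (0.0690 and 0.118).

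Surface genes changed in both directions. Of 28 Fc, scavenger and phagocytic receptors none rose and 2 fell: the lectin gene Clec10a, from 8.53 and 9.20 to 6.38 and 6.81 (-2.27 ± 0.28, adjusted p = 0.00567), and Scarb2, a lysosomal membrane protein (-1.17 ± 0.24). Of 22 integrin and adhesion genes Itgb8, which takes part in activating TGF-beta, rose (1.99 ± 0.31) and Selplg, the ligand of P-selectin, fell (-0.96 ± 0.21). Rises among genes chosen after their values were seen were those of Gja1, connexin 43, from 7.97 and 6.84 to 11.34 and 11.64 (4.09 ± 0.62), Cldn1, claudin 1, from 8.68 and 8.49 to 11.67 and 11.80 (3.15 ± 0.22), Flrt3 (4.21 ± 0.31), the ephrin receptor gene Epha4 (2.87 ± 0.41) and Pdpn, podoplanin (3.99 ± 0.55). The caveolin genes Cav1 (2.19 ± 0.29) and Cav2 (1.52 ± 0.29), the proteoglycan gene Sdc4 (1.61 ± 0.31) and Cd200, which restrains myeloid cells (2.83 ± 0.35), rose too.

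Some genes of lysosomal proteins, chosen in the same way, changed. The channel genes Mcoln2 (3.44 ± 0.30) and Clcn7 (1.75 ± 0.20) rose, and the hydrolase genes Manba (-1.60 ± 0.22), Man2b1 (-0.99 ± 0.21), Hpse (-1.70 ± 0.26) and Arsg (-1.99 ± 0.41) and the sorting receptor gene Sort1 (-2.32 ± 0.29) fell. Flrt3, Cldn1, Clec10a, Clcn7 and Mcoln2 were robust. Counting Plet1, 16 of 21 surface and lysosomal calls were lost without PGN replicate 2 (adjusted p 0.0530 to 0.159), and without unstimulated replicate 2 all of these but Cd200 (0.0533 to 0.251). Cav2, Sdc4, Plet1, Selplg, Scarb2, Man2b1 and Hpse were lost without PGN replicate 1 (0.0509 to 0.112), and Selplg, Scarb2 and Arsg without unstimulated replicate 1 (0.0542 to 0.0696). The change of Arsg was -1.28 without PGN replicate 2.

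Survival genes held 4 rises and 1 fall among 24. Bcl2l1, which encodes the survival protein Bcl-xL, went from 8.45 and 8.65 to 10.84 and 10.91 (2.32 ± 0.19, adjusted p = 0.00126), and Phlda1 from 9.04 and 8.96 to 11.75 and 11.82 (2.79 ± 0.20, 7.20e-04). The caspase genes Casp6 (2.08 ± 0.37) and Casp4, which senses lipopolysaccharide in the cytosol (1.43 ± 0.28), rose, and Casp9, the initiator of mitochondrial apoptosis, fell (-0.92 ± 0.21), although both of its other probe sets changed in the opposite direction. Bcl2l1 and Phlda1 were robust. Casp6, Casp4 and Casp9 were lost without unstimulated replicate 2 (adjusted p 0.0950 to 0.261) or PGN replicate 2 (0.110 to 0.166), Casp4 and Casp9 without PGN replicate 1 (0.0977 and 0.106), and Casp6 and Casp9 without unstimulated replicate 1 (0.0621 and 0.0510).

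Other lists had no member that passed. With 3.94% of all genes tested passing, lists of their length may hold none. None of 30 interferon response genes did, with a median of 0.15 and 1 rise with the replicate block. The unstimulated arrays differed in this list: Ifi204 was at 10.23 and 7.62 before PGN and at 10.53 and 9.93 after it (1.30 ± 0.78, adjusted p = 0.413), and Gbp3 at 10.03 and 8.48, then 10.83 and 10.50 (1.41 ± 0.48, 0.147). None of 22 antigen presentation genes passed (median -0.08), nor any of 29 cell cycle genes (median -0.45, with 6 positive changes). In the cell cycle list Ccnd3 was at 9.38 and 10.67, then 7.43 and 8.79 (-1.91 ± 0.50, adjusted p = 0.0759; 0.00918 with the block), and 3 of its genes fell with the block.

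**Figure D3:**
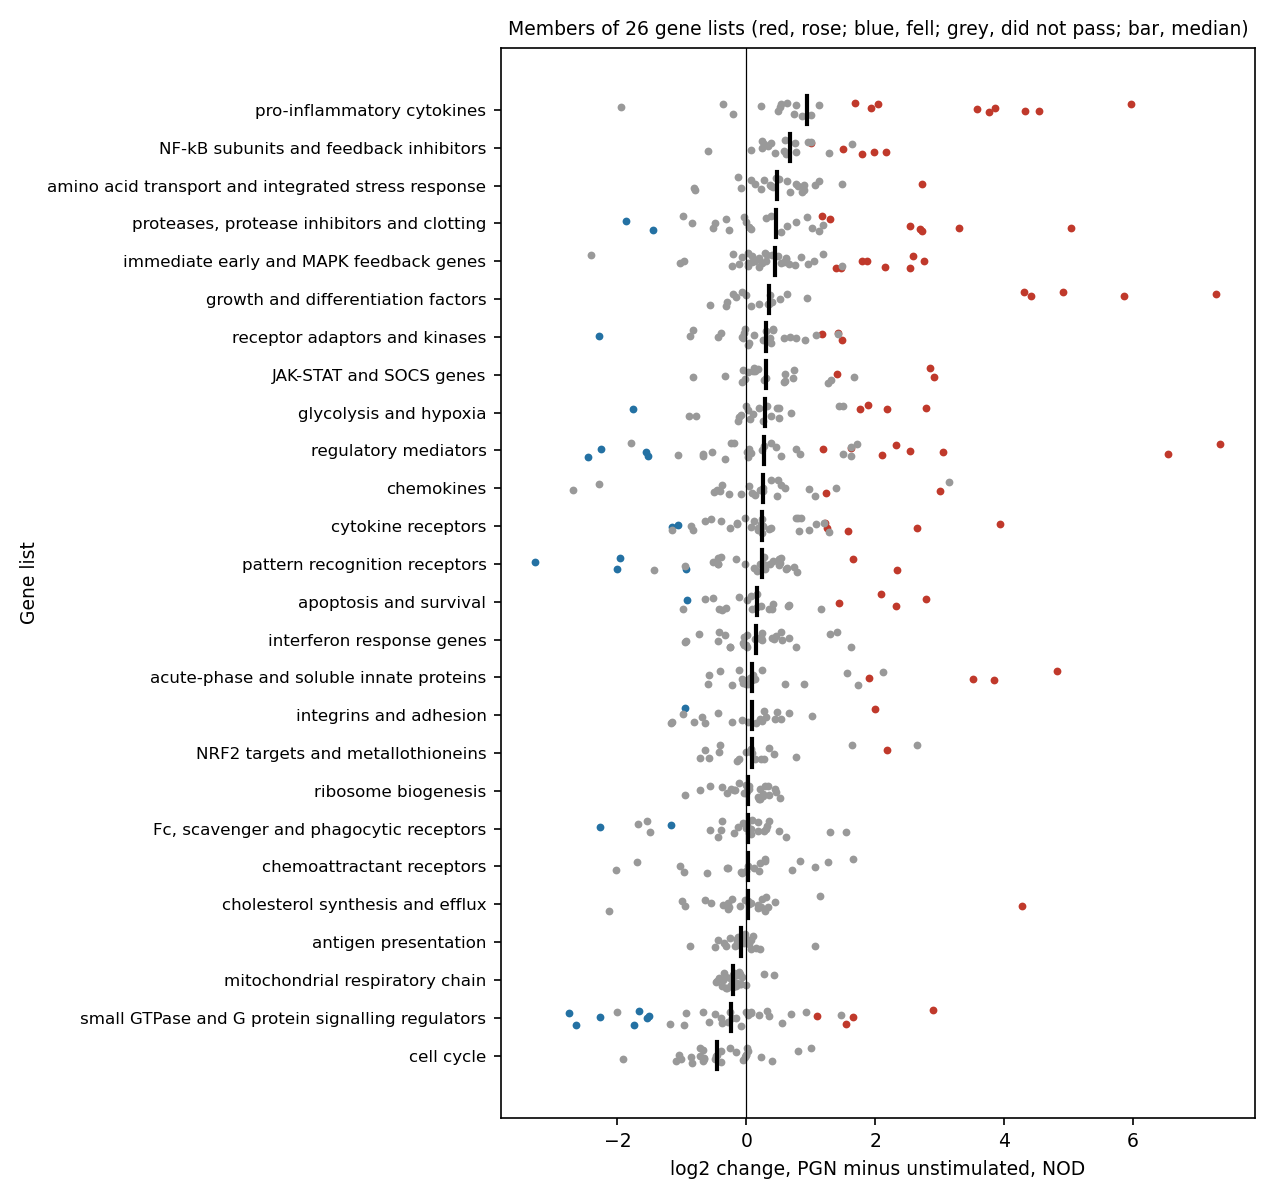
Log2 change with PGN in NOD cells (horizontal axis) for each measured member of 26 gene lists (rows), with members that rose in red, fell in blue and did not pass in grey, and the list median as a bar. Pro-inflammatory cytokines have the highest median (0.93) and cell cycle genes the lowest (-0.45), and in most lists a few members lie far from a bulk near 0.

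Taking the 26 lists as a whole, 690 of their 750 genes were measured. Of the 717 called genes 102 were list members, 77 rising and 25 falling among the 690 measured, and 615 stood in no list. Over all 18193 genes tested, 1.81% rose and 2.13% fell. The lists were chosen with earlier results of these data known, so their share of calls is no test. With the replicate block the counts of rises and falls became 5 and 2 for chemokines, 6 and 2 for adaptors and kinases, 12 and 3 for immediate early genes, 5 and 0 for JAK-STAT genes, 9 and 4 for cytokine receptors and 7 and 0 for acute-phase proteins. They became 2 and 3 for Fc and scavenger receptors, 2 and 2 for integrins, 6 and 2 for glycolysis and hypoxia, 3 and 1 for amino acid transport and 2 and 2 for cholesterol genes. Among the genes in no list, robust rises chosen after their values were seen included Rgcc, a cell cycle regulator (2.93 ± 0.26), Prag1 (3.25 ± 0.33) and Rcl1 (2.91 ± 0.29).

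The 15 largest falls held few genes of the lists. Cep19, which encodes a centrosomal protein, was at 7.91 and 10.01 unstimulated and at 5.30 and 5.37 with PGN (-3.62 ± 0.56, adjusted p = 0.0125). Deptor, an mTOR inhibitor, fell from 8.15 and 8.08 to 5.35 and 5.21 (-2.84 ± 0.33, adjusted p = 0.00437), and Susd3 from 10.99 and 11.47 to 8.64 and 8.11 (-2.86 ± 0.29, 0.00297). Further falls among the 15 were those of Gm19696, Ppbp, Mtus1, Oscp1, Slc9a3r2, Acot1, Lhx1, Rnase6, Tmem71 and Tmem154, between -3.12 (Gm19696) and -2.71 (Tmem154), beside Nlrp12 and Rgs2. Susd3 and Rgs2 were robust. The other 13 were lost without PGN replicate 2 (adjusted p 0.0501 to 0.200), and without unstimulated replicate 2 all of these but Cep19 and Deptor (0.0517 to 0.247). Cep19, Ppbp, Mtus1, Acot1 and Lhx1 were lost without PGN replicate 1 (0.0539 to 0.0869), and Gm19696, Ppbp, Acot1 and Lhx1 without unstimulated replicate 1 (0.0618 to 0.116).

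Large differences also occurred without passing. There were 36 genes that differed by at least 2 log2 units without an adjusted p under 0.05, and 31 of them passed with the replicate block. The largest were those of Gxylt2, a glycosyltransferase gene at 5.65 and 4.19, then 9.28 and 7.52 (3.48 ± 0.97, adjusted p = 0.0918), and Itih1 at 6.21 and 5.06, then 9.59 and 8.11 (3.22 ± 0.86, 0.0785). In both genes replicate 1 was higher than replicate 2 by over 1 log2 unit in each group, so the change within each replicate number was similar. With the block their adjusted p-values were 0.00220 and 0.00160.

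Markers of other blood cells were read beside these changes. In whole populations a smaller number of cells of a type and less RNA per cell cannot be told apart. Of 11 measured neutrophil markers 2 fell, Mmp8 and Mmp9, and none rose, with a median of -0.52 and a summed level of log2 16.90 and 16.91 on the unstimulated arrays and 16.65 and 16.67 with PGN. S100a8 and S100a9, which encode calprotectin, abundant in granulocytes, changed by 0.02 and 0.06. They were the only 2 of the 11 with a positive change, and all the others had a negative one. Cxcr2 and Csf3r, receptors of neutrophils, changed by -1.69 ± 0.62 and -1.15 ± 0.37 without passing. With the replicate block Csf3r passed (adjusted p = 0.0234 in limma) and Cxcr2 did not (0.0507), and 3 neutrophil markers fell. The part of neutrophils in the falls of Mmp8, Mmp9 and Pglyrp1 was not tested.

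Of 7 platelet markers the chemokine genes Pf4, from 11.61 and 10.84 to 9.46 and 9.52 (-1.74 ± 0.35, adjusted p = 0.0324), and Ppbp, from 11.61 and 10.45 to 8.61 and 7.44 (-3.01 ± 0.64, 0.0396), fell, and none rose. The summed platelet level went from 12.67 and 11.79 to 10.46 and 10.21, while the other 5 platelet genes (Gp6, Itga2b, Gp1bb, Gp9 and Treml1) changed by between -0.23 and 0.51. The part of platelets in the falls of Pf4, Ppbp, Nfe2 and Rgs18 was not tested. One of 11 T cell markers fell, Cd3d, from 11.61 and 12.44 to 10.18 and 10.45 (-1.71 ± 0.30, adjusted p = 0.0190), while Cd3e was at 6.88 and 7.01, then 6.51 and 7.03. One of 6 plasma cell markers rose, Sdc1, which epithelial and myeloid cells also carry (2.07 ± 0.47, adjusted p = 0.0476). No measured marker of monocytes (7), macrophages (13), dendritic cells (9), B cells (11), NK cells (9), erythroid cells (5), mast cells and basophils (7), eosinophils (5) or stromal and endothelial cells (10) passed. The share that passed over all genes tested was 3.94%. With the replicate block 2 NK cell markers rose and 1 fell, 1 marker each of monocytes and B cells rose and 1 fell, 1 each of dendritic, T and stromal cells rose, 1 each of macrophages and eosinophils fell, and 2 plasma cell markers rose. The summed B cell level followed the replicate number, at 11.27 and 11.21 in replicate 1 and at 12.59 and 12.35 in replicate 2 (unstimulated first). All 6 marker calls were lost without unstimulated replicate 2 (adjusted p 0.0706 to 0.118) or PGN replicate 2 (0.0712 to 0.219), Mmp8, Pf4, Ppbp and Cd3d without PGN replicate 1 (0.0561 to 0.103), and Pf4, Ppbp and Sdc1 without unstimulated replicate 1 (0.0939 to 0.131).

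The response differed in size between the replicate numbers. Across genes, the change within replicate 1 and within replicate 2 correlated at 0.663, as a description over genes that share their arrays. Among the genes that rose the median change was 1.62 in replicate 1 and 1.79 in replicate 2, and 220 of 330 changed more in replicate 2. Among those that fell the medians were -1.22 and -1.79, and 338 of 387 changed more in replicate 2. The unstimulated arrays also differed. Of the genes that rose, 64.8% were higher on unstimulated replicate 1 than on replicate 2, and of the genes that fell, 85.3% were lower there, against 49.6% of all genes higher and 50.3% lower. Unstimulated replicate 1 thus lay nearer the PGN arrays for most called genes. On the unstimulated NOD.Idd3 arrays 70.0% of the genes that rose in NOD cells were higher in replicate 1 and 49.4% of those that fell were lower. The 3′ minus 5′ differences of the control probe sets, a measure of RNA degradation, were higher in replicate 1 in NOD cells. That of Gapdh was 1.08 unstimulated and 1.16 with PGN in replicate 1, and 0.877 and 0.924 in replicate 2. That of Actb was 0.537 and 0.580 in replicate 1 and 0.425 and 0.480 in replicate 2. In NOD.Idd3 the Gapdh difference was again higher in replicate 1 (0.8032 and 0.7713) than in replicate 2 (0.7481 and 0.7165). The Actb difference there was lower in replicate 1 (0.215 and 0.265) than in replicate 2 (0.351 and 0.460). Their part in the size of the response was not tested.

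**Figure D4:**
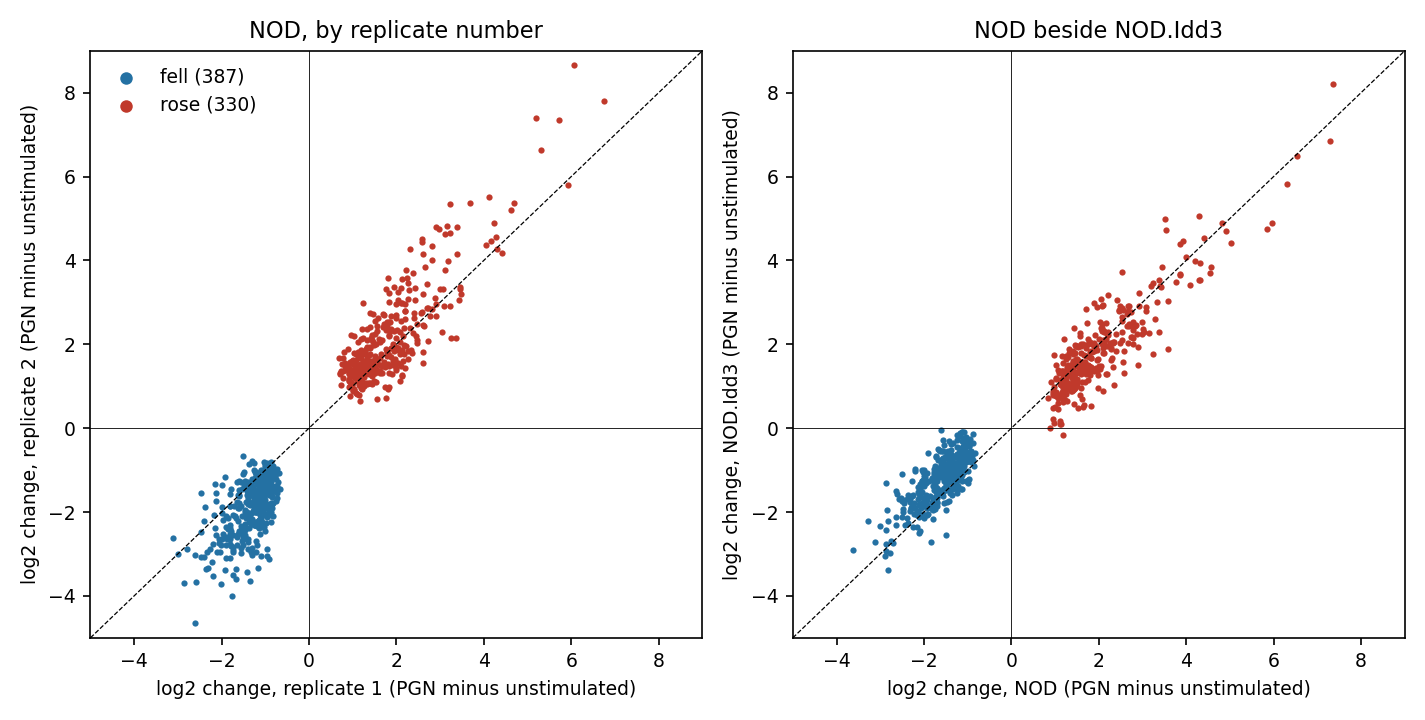
Log2 change with PGN of the 330 genes that rose (red) and the 387 that fell (blue) in NOD cells, in replicate 2 against replicate 1 (left) and in NOD.Idd3 against NOD (right), with dashed lines of equality. Most points lie beyond the line on the replicate 2 side, 220 of the rises and 338 of the falls, and falls are smaller in NOD.Idd3 than in NOD (medians -1.11 and -1.50).

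Beside NOD.Idd3, the response was close in direction. Its 4 arrays share none with NOD but entered the same fit, so the comparison is not an independent check. Replicate differences also correlated between groups of the 2 strains (r 0.167 to 0.415). The share with the same sign over all genes was not counted. Of the 330 genes that rose in NOD cells, 328 had a positive change in NOD.Idd3, with a median of 1.62 against 1.71, and 240 passed there. Adam6a and Lurap1l were the exceptions, with changes of 0.88 and 1.17 in NOD and of 0.00 and -0.15 in NOD.Idd3. Together 715 genes, 3.93% of all genes tested, were called in NOD cells with the same sign in NOD.Idd3. All 387 genes that fell had a negative change in NOD.Idd3, with a median of -1.11 against -1.50, and 161 passed there. The 572 genes called in NOD.Idd3 were 3.14% of all genes tested. The medians in NOD are raised by the choice of these genes on NOD arrays. Tested directly, the difference between the strains' responses passed for no gene in limma (0.0% of 18193), with or without the replicate block. The unadjusted p lay below 0.05 for 314 of the 18193 genes, a smaller share than the 0.05 that p-values would reach without any difference.

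Ranked by that p, the first 5 genes were Phxr4, Poli, Slc39a8, Epb41l4b and 0610040J01Rik, given here in no order and all with an adjusted p of 1.00. Poli, a DNA polymerase gene, was at 6.10 and 6.51 without PGN and at 4.88 and 4.51 with it in NOD (-1.61 ± 0.26), and at 5.77 and 5.64, then 5.40 and 5.92, in NOD.Idd3 (-0.05). Epb41l4b changed by 0.82 in NOD and 2.39 in NOD.Idd3, and the zinc transporter gene Slc39a8 by 0.35 and 1.78. Of the cytokines, Il6 rose by 3.57 in NOD and changed by 1.88 in NOD.Idd3, a difference of -1.70 ± 0.76 (NOD.Idd3 minus NOD; unadjusted p = 0.0545 in limma, adjusted p = 1.00). Nos2 changed by 1.71 in NOD and 3.96 in NOD.Idd3, a difference of 2.24 ± 1.13 (unadjusted p = 0.0801 in limma).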

How the data were processed

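RNA was hybridised to 8 single-channel arrays, 2 for each of 4 groups. The authors deposited linear-scale intensity values, made with RMA per the submitters' processing notes. Of 45101 probe sets, 64 controls, 9160 without a symbol and 932 with several were left out; the other 34945 gave 18193 genes. Intensities were converted to log2, with no filter or further normalization.

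Group means were compared with limma 3.58.1 (R 4.3.3; 4 residual and 4.69 prior degrees of freedom), and p-values were adjusted over all genes. On simulated data with this design and 18193 genes, 34% of changes of 1 log2 unit were recovered, 98% of 2 and 100% of 3 or 4, with 9 false calls. The simulated noise was normal, independent between arrays and equal in spread across groups, without the correlation of replicate differences given below. Recovery in the real data may be lower: 36 changes of at least 2 log2 units did not pass, beside 126 rises and 86 falls that did. The number of arrays limits the precision.

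Named genes were the 15 largest rises and falls that passed, up to 6 members of each list by p, fixed cytokines and receptors, the 6 largest differences that did not pass and the 5 smallest p-values between strains; list members beyond 6 were picked with their values in view. Members and lists were chosen with earlier results of these data known. Replicate differences correlated between groups (r 0.167 to 0.415), a pairing found in the data and not in the labels. The reported fit has no block; the replicate block is an alternative. Other alternatives were each array left out (a lone array is assumed to vary like the other groups), the NOD arrays alone, quantile normalization, a pseudocount of 16, a variance trend, removal of genes under the 40th percentile, the mean of all probe sets and removal of _x_at and _s_at probe sets.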

Additional observations from a re-analysis of the deposited data

Results flagged for a closer look

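Both changes below had opposite directions in the 2 strains, on every array of each group. Only the 300 named genes were searched, and the share of all genes with such a pattern was not counted. Phxr4 was named for its small p between strains, so its opposite directions partly follow from that choice. Phxr4 was at 6.39 and 6.70 unstimulated and at 5.98 and 5.87 with PGN in NOD cells, and at 5.50 and 5.85, then 6.56 and 6.62, in NOD.Idd3 cells. The difference (NOD.Idd3 minus NOD) was 1.53 ± 0.31 on the log2 scale, with an unadjusted p of 8.76e-04 in limma and an adjusted p of 1.00. Ctsl, the gene of the lysosomal protease cathepsin L, was at 12.24 and 11.75, then 11.74 and 11.75, in NOD cells and at 11.73 and 11.90, then 12.01 and 12.46, in NOD.Idd3 cells. Its difference was 0.677 ± 0.350 (unadjusted p = 0.0860 in limma, adjusted p = 1.00), and its NOD arrays are separated by less than the last digit printed.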

How the results depend on the processing

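The 717 calls (330 higher, 387 lower) became 1586 (696 and 890) with the replicate block, which added calls and removed none of the 717, and 416, of them 185 lower, in a fit of only the 4 NOD arrays. Leaving out each of the 8 arrays gave 77 to 876 calls, 58 to 311 higher and 19 to 585 lower, and 249 lower without either unstimulated NOD.Idd3 array. Without PGN replicate 2, 144 of 300 named changes lost their call and 1 reversed. Without unstimulated replicate 2, 132 lost it and 3 reversed. The cause was not tested.

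Reversals concerned changes that did not pass. With 1 NOD array left out a called gene could not reverse, because its PGN and unstimulated arrays did not overlap. Tlr4 turned to 0.029 with a further quantile normalization and ranged from -0.29 to 0.25 with single arrays left out, at 0.22 without PGN replicate 2 and 0.25 without unstimulated replicate 1. Over the same omissions 0610040J01Rik ranged from -0.52 to 0.14 (positive without unstimulated replicate 1). Without unstimulated replicate 2 the signs of Gbp2 (-0.049 to 1.38), Hpgd (-0.94 to 0.16) and Ifi204 (-0.00048 to 2.61) turned. Ctsl turned to 0.031 with the mean of all probe sets. The difference between strains passed for no gene under any alternative run. Of the called genes, 403 had 766 further probe sets, of which 75 changed in the opposite direction. Signal over background limits falls among dim genes, and 11 genes that rose were dim without PGN.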
